A study of Mus musculus with 6 samples.

Results

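The antigen processing and immunoproteasome genes are 10 genes that make peptides and load them onto MHC class I molecules, out of 55421 genes in the count table. They are Psmb8, Psmb9 and Psmb10 of the immunoproteasome, Tap1, Tap2 and Tapbp of the peptide transporter and its loading complex, the class I chains H2-K1, H2-D1 and B2m, and Nlrc5, the class I transactivator. Each was found by its gene name in the per-library tables and joined by gene identifier to the count table, and each name matched 1 row. The genes had been selected on the difference between the same 2 groups of libraries, so their fold changes below are a description with standard errors and carry no test. All 10 were among the 18140 genes with enough counts to be fitted.

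RNA sequencing was performed on 6 libraries of C2C12 cells, a mouse myoblast line, on day 4 of differentiation. All cells carried pCDNA3-GFP-(CUG)200, a GFP reporter with 200 CUG repeats that models myotonic dystrophy type 1 (DM1). The 3 control libraries came from DM1 myoblasts with the empty pLL4.0 vector, and the 3 miR-322/-503 libraries came from DM1 myoblasts with the same vector carrying the miR-322/-503 fragment. The comparison asks which transcripts differ in DM1 myoblasts when miR-322/-503 is overexpressed. Each group was a drug-selected stable line of its own, and whether a line was a clone or a pool is not given in the sources used here, so a difference between lines and an effect of the microRNAs cannot be told apart. The methods speak of biological and of technical replicates for the assays in general, and the labels do not say which of these the libraries of a group are, so p-values measure the spread between these libraries, which may be technical.

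A cell shows samples of its own proteins at its surface as short peptides held by class I molecules. The proteasome cuts the peptides, the Tap1-Tap2 transporter moves them into the endoplasmic reticulum, and a loading complex that includes tapasin (Tapbp) fits them onto a class I heavy chain bound to B2m. Interferon-gamma is known to replace the standard catalytic subunits of the proteasome with immunoproteasome subunits and to raise most of the pathway through factors that include Irf1 and Nlrc5. In skeletal muscle the pathway is known to be low in healthy fibres and to rise in inflammatory myopathy.

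The mature microRNAs are shown because the groups differ by them, with the seed (bases 2 to 8) in capitals, from RefSeq on GRCm38.p6, both on the minus strand of chromosome X at chrX:53054306-53054327 and chrX:53054027-53054049.
miR-322-5p: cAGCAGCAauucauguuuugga
miR-503-5p: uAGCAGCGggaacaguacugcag
The seeds are alike up to their last base, and a site in a messenger RNA is the reverse complement, TGCTGCT for miR-322-5p and CGCTGCT for miR-503-5p. In the longest annotated 3′ untranslated region of each of the 10 genes, 1 gene, H2-D1, held 1 miR-322-5p site, and 0 of 10 held a miR-503-5p site. Of 13409 fitted genes with such a region, 24.4% held a miR-322-5p site and 4.87% held a miR-503-5p site. The regions of the 10 genes were short, with a median of 449.5 bases against 1173 bases over all of these genes. The libraries hold long RNA, and the precursor genes Mir322 and Mir503 reached at most 17 and 6 counts in a library, so the overexpression itself was not measured here.

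The promoter windows of Psmb8 and Tap1, which had the lowest log2 fold changes of the set, and of the 3 class I chains are shown to compare their letters. Each window runs from 250 bases before to 50 bases after a RefSeq start site on GRCm38.p6, 5′ to 3′ on the strand of the gene. Capitals mark matches, on either strand, to 4 patterns: GAAA, 2 bases of any kind and GAAA (an interferon-stimulated response element), TTCNNNGAA (GAS, the gamma-activated site bound by STAT dimers), CCAAT (the box bound by NF-Y) and TGACG (the core of the cAMP response element, part of the X region of class I promoters). No match of one pattern overlapped a match of another in the windows printed.
Tap1, shared with Psmb9, chr17:34187306-34187605, plus strand: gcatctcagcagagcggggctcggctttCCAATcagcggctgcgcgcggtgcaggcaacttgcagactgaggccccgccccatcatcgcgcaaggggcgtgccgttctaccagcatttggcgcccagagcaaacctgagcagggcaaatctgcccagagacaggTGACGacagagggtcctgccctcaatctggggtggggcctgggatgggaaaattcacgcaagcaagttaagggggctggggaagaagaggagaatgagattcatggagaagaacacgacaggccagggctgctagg
Psmb8, chr17:34197945-34198244, plus strand: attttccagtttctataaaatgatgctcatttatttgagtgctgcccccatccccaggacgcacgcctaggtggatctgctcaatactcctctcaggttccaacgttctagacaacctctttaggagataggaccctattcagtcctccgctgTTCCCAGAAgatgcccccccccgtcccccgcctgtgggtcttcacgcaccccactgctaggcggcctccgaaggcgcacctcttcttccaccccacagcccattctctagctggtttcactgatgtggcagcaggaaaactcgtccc
H2-K1, chr17:34000298-34000597, minus strand: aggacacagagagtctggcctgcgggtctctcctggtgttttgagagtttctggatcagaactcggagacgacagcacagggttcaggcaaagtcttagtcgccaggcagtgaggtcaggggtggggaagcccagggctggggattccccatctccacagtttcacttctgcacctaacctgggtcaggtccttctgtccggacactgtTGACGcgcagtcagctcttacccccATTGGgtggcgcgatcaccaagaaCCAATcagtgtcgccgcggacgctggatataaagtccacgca
H2-D1, chr17:35262844-35263143, plus strand: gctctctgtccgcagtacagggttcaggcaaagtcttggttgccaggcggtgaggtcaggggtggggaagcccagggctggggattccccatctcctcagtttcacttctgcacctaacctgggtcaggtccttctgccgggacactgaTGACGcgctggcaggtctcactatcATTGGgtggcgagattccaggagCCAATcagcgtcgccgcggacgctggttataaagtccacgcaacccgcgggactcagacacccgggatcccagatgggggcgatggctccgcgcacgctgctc
B2m, chr2:122147437-122147736, plus strand: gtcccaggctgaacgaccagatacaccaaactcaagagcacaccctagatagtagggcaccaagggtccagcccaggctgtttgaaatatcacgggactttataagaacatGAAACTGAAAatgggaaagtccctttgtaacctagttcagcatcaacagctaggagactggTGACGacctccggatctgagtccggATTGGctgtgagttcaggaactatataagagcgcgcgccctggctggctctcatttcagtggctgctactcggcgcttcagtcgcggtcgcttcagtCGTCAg

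Tap1 and Psmb9 are read in opposite directions from one stretch of DNA: their start sites lie 226 bases apart and 275 of the 300 bases of their windows are the same. The table of windows held 8 of the 10 genes, all but Tap2 and Nlrc5. The CCAAT pattern was in windows of 6 of these 8 genes (Tap1, Psmb9, Tapbp, H2-K1, H2-D1 and B2m) and in 37.4% of all 32851 windows, and TGACG was in 5 of 8 (Tap1, Psmb9, H2-K1, H2-D1 and B2m) and in 20.8% of all windows. Since Tap1 and Psmb9 share their window, they count as the same match in both. The interferon pattern, in this exact spelling, was in the window of B2m and in 3.44% of all windows. The GAS pattern was in the window of Psmb8 and in 8.30% of all windows. Other spellings of the interferon element were not searched, so a window without a match, such as those of H2-K1 and H2-D1, may still hold one. The windows of H2-K1 and H2-D1 have a run of 47 identical bases. A match is a description of the letters and no evidence that a factor binds there.

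The libraries held between 73532084 and 92157388 estimated counts, or about 18383021 to 23039347 read pairs at 4 counts a pair. A level of 3 read pairs (12 counts) corresponded to between 0.126 and 0.160 CPM (counts scaled to library size) and was taken as the floor of detection, which covers counting error only. Of 13 leukocyte markers, 6 were at 0 in every library, among them Cd3e and Adgre1, and 10 were at or under 12 counts in every library. Their summed level ranged from 22.9 to 29.9 TPM (levels per transcript length) in controls and from 20.1 to 24.4 TPM with miR-322/-503. This sum came mostly from Cd14, Cd68 and Lyz2, and Lyz2, a lysozyme of macrophages, fell from 141, 78 and 88 counts to 0, 0 and 5 counts (adjusted p = 0.00289, edgeR). Cd14 fell by 0.34 on the log2 scale (adjusted p = 0.0362). Cd68, a macrophage marker, was at 2.47 ± 0.459 CPM in controls and 3.44 ± 0.368 CPM with miR-322/-503 (log2 fold change 0.48, adjusted p = 0.102). Of the 3 fitted leukocyte markers, 2 fell and 0 rose at the threshold, and Cd68 was higher without passing it. Of 5 endothelial markers 4 were at or under the floor, and Tek rose (log2 fold change 1.90, adjusted p = 0.000342), with a summed level of 0.423 to 0.524 TPM in controls and 1.58 to 2.35 TPM with miR-322/-503. Whether these transcripts, or cells that make them, had a part in the results was not tested. The 12 myoblast and myotube markers summed to between 3643 and 4013 TPM in controls and between 4508 and 4709 TPM with miR-322/-503. Most of this sum was Acta1 and Des, and its members did not move one way: 7 of the 12 rose, 1 fell and 4 did not pass the threshold. Mef2c, a transcription factor of muscle differentiation, rose by 3.61 on the log2 scale (adjusted p = 2.23e-05), the fast troponin T gene Tnnt3 by 1.04 (adjusted p = 0.000297) and the muscle creatine kinase Ckm by 0.87 (adjusted p = 9.57e-05), while Myog (myogenin) fell by 0.74 (adjusted p = 0.000665). The part of these shifts in the results was not tested. In bulk RNA, fewer cells of a type and less RNA per cell cannot be told apart.

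The levels of the 10 genes spanned a wide range within a library. On the length-corrected TPM scale the control order was B2m at 1560 ± 110.3 (SD, n = 3), Tapbp at 108 ± 20.2, H2-K1 at 62.6 ± 8.60, H2-D1 at 34.7 ± 3.95, Psmb10 at 11.4 ± 0.265, Tap2 at 9.92 ± 1.30, Tap1 at 4.98 ± 0.847, Psmb8 at 0.991 ± 0.289, Nlrc5 at 0.922 ± 0.285 and Psmb9 at 0.326 ± 0.113. Psmb10 and Tap2, and Psmb8 and Nlrc5, were neighbours in this order whose libraries overlapped. With miR-322/-503 the first 6 places were held by the same genes in the same order, and the last 4 were Nlrc5 at 1.60 ± 0.646 TPM, Tap1 at 0.795 ± 0.179, Psmb9 at 0.118 ± 0.0492 and Psmb8 at 0.0372 ± 0.0328. H2-K1 and H2-D1, and Nlrc5 and Tap1, then overlapped. Psmb8 and Psmb9 were then under 12 counts in every library, below the floor of detection, so their order is not read.

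**Figure D1:**
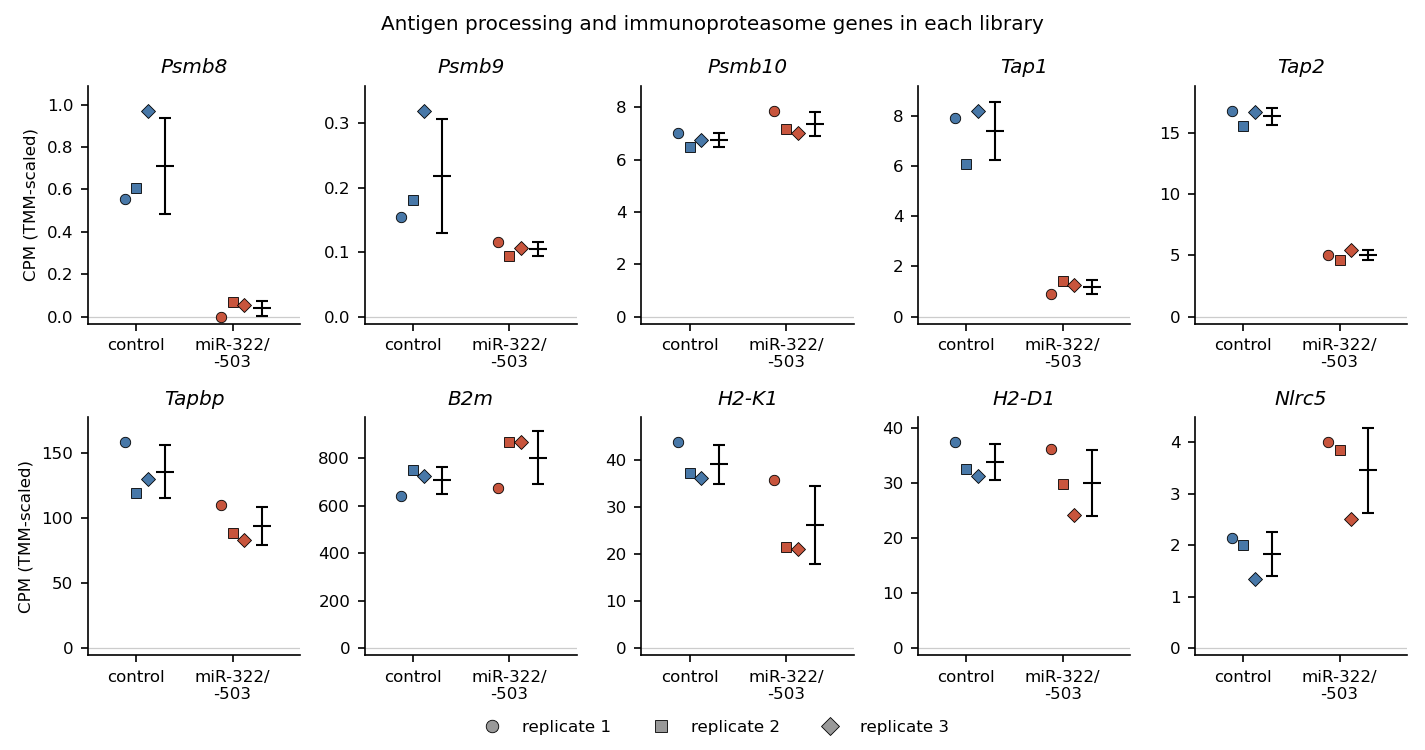
Level of each gene in the 6 libraries, in CPM after TMM scaling on linear axes that include 0 (blue for control, red for miR-322/-503, marker shape for the replicate number), with the mean and SD beside the points. Psmb8, Psmb9, Tap1, Tap2, Tapbp and H2-K1 lie below all controls in every miR-322/-503 library. Nlrc5 lies above all controls, and Psmb10, B2m and H2-D1 overlap. For Psmb9 the nearest libraries held 12 counts (control replicate 1, at the floor of detection) and 11 counts (miR-322/-503 replicate 1).

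Tap1 and Tap2 lay far apart between groups. Tap1, which forms the peptide transporter with Tap2, was at 7.93, 6.09 and 8.21 CPM in control replicates 1 to 3 and at 0.881, 1.43 and 1.26 CPM with miR-322/-503. No library of one group came near the other, and the fitted log2 fold change was -2.64 (SE 0.22), with means 6.23 times lower. Tap2 was at 16.8, 15.6 and 16.7 CPM in controls and at 5.05, 4.61 and 5.48 CPM with miR-322/-503. Here too the groups were far apart, at a log2 fold change of -1.70 (SE 0.10) and means 3.24 times lower. Whether Tap1 differed by more than Tap2 was not tested. Tapbp, which bridges the transporter and the class I heavy chain, was at 158, 119 and 130 CPM in controls and at 110, 88.8 and 83.0 CPM with miR-322/-503. The groups did not overlap but were close, with a log2 fold change of -0.53 (SE 0.14).

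The 3 immunoproteasome subunits had unlike values. Psmb8 (the LMP7 subunit, which takes the place of Psmb5) was at 0.556, 0.606 and 0.971 CPM in controls and at 0, 0.0667 and 0.0532 CPM with miR-322/-503. These were 43, 50 and 82 counts against 0, 5 and 4, so Psmb8 was above the floor in every control and under it in every miR-322/-503 library. As read pairs this is 44 against 2, a ratio of control to miR-322/-503 of 21.4 with an exact 95% interval of 5.58 to 182 for counting error, and the fitted log2 fold change of -4.17 (SE 0.81) depends on the prior count. It was -3.53 without replicate 1 and -4.78 without replicate 2 of miR-322/-503, and -2.99 and -0.93 with limma on log2(TPM + 0.1) and log2(TPM + 1). Psmb9 (LMP2, which takes the place of Psmb6) was at 0.155, 0.182 and 0.320 CPM in controls and at 0.115, 0.0934 and 0.106 CPM with miR-322/-503. With 14 against 6 read pairs its ratio was 2.27, with an exact 95% interval of 0.819 to 7.21 for counting error, which takes in equal levels. Psmb10 (MECL-1, which takes the place of Psmb7) was at 7.03, 6.49 and 6.74 CPM in controls and at 7.87, 7.17 and 7.01 CPM with miR-322/-503. These libraries overlapped and the log2 fold change was 0.12 (SE 0.10).

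The standard catalytic subunits, which the immunoproteasome subunits replace, were abundant and close between groups. Psmb5 was at 46.2 ± 3.16 CPM in controls and 44.6 ± 6.67 CPM with miR-322/-503 (log2 fold change -0.05, adjusted p = 0.794, edgeR quasi-likelihood test, as for all adjusted p-values here). Psmb6 was at 129 ± 4.31 and 130 ± 1.71 CPM (0.01, adjusted p = 0.915) and Psmb7 at 139 ± 7.62 and 147 ± 3.52 CPM (0.09, adjusted p = 0.331). As a share of the TPM of its catalytic pair, Psmb8 was 0.847%, 0.757% and 1.44% in controls and 0%, 0.0631% and 0.0660% with miR-322/-503. Psmb9 was 0.105% ± 0.0395 of its pair in controls and 0.0375% ± 0.0141 with miR-322/-503. Psmb10 made up 4.95% ± 0.370 and 4.83% ± 0.570 of its pair. All 3 together were 1.99% ± 0.182 and 1.83% ± 0.154 of the 6 catalytic subunits, a difference smaller than the SD of the control group, and by coverage per base the order turned (2.55% and 2.59%).

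**Figure D2:**
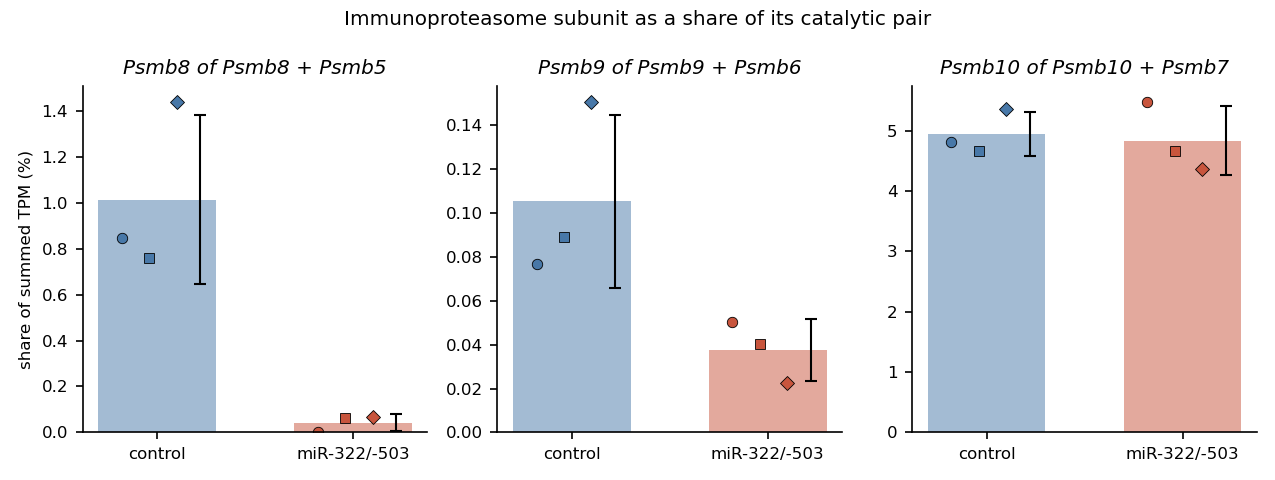
Share of each immunoproteasome subunit in the summed TPM of its catalytic pair, in percent, with a separate axis for each pair. Bars are group means, whiskers the SD, and points the 3 libraries of a group, with marker shapes for replicates 1 (circle), 2 (square) and 3 (diamond). Psmb8 goes from 1.01% to 0.0430%, and Psmb10 stays between 4.36% and 5.47%.

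The 3 class I chains had unlike values. H2-K1, a classical heavy chain that presents peptides to cytotoxic T cells, was at 43.7, 37.1 and 36.1 CPM in controls and at 35.7, 21.5 and 21.1 CPM with miR-322/-503. Replicate 1 of miR-322/-503 lay just under the controls and apart from the other miR-322/-503 libraries, and the log2 fold change was -0.58 (SE 0.21), or -0.87 without that library. H2-D1, the other classical heavy chain, was at 37.4, 32.6 and 31.2 CPM in controls and at 36.1, 29.7 and 24.1 CPM with miR-322/-503. The groups overlapped, with a log2 fold change of -0.17 (SE 0.15) that was -0.32 without replicate 1 and -0.035 without replicate 3 of miR-322/-503. B2m, the light chain shared by all class I molecules, was at 643, 750 and 727 CPM in controls and at 675, 868 and 867 CPM with miR-322/-503. It was the most abundant gene of the set, its groups overlapped, and its log2 fold change was 0.18 (SE 0.11), or 0.30 without replicate 1 of miR-322/-503. C2C12 comes from the C3H strain and the reference is C57BL/6J, whose class I alleles differ, and the class I heavy chain genes resemble each other, so how reads were divided among H2-K1, H2-D1 and their relatives is uncertain.

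Nlrc5, the transactivator of class I genes, went the other way. It was at 2.13, 1.998 and 1.35 CPM in controls and at 4.00, 3.85 and 2.50 CPM with miR-322/-503. Every miR-322/-503 library lay above every control, with replicate 3 the lowest of each group, and the log2 fold change was 0.92 (SE 0.26). On the TPM scale the groups overlapped, since replicate 3 of miR-322/-503, at 0.864 TPM, lay below replicates 1 and 2 of the controls, at 0.992 and 1.17 TPM. The CPM estimate lay between 0.74 and 1.10 when each library was left out in turn. Its class II counterpart Ciita did not pass the filter on low counts, at 0.0572 ± 0.00478 CPM in controls and 0.173 ± 0.156 CPM with miR-322/-503.

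Of the 10 genes, 4 were lower at an adjusted p-value under 0.05 (Psmb8, Tap1, Tap2 and Tapbp), where 15.5% of all fitted genes were lower, and 3 of them (Psmb8, Tap1 and Tap2) were lower with a log2 fold change below -1, where 5.29% of all were. Nlrc5 was the 1 gene that was higher, where 13.2% of all fitted genes were, and 0 of 10 were higher with a log2 fold change above 1 (also 0 by DESeq2 and limma), where 4.59% of all were. Without overlap between groups, 6 lay below the controls (23.5% of all fitted genes) and 1 above (21.6%). Among the 6, the nearest Psmb9 libraries held 12 counts (control replicate 1) and 11 counts (miR-322/-503 replicate 1). Because the genes were picked from this contrast, these counts and the threshold describe where the genes lie, and nothing is read from them. The median log2 fold change was -0.55 over the 10 genes and -0.01 over all fitted genes. Among genes with values below 0, Tapbp lay nearest inside the threshold at -0.53 (SE 0.14) and H2-K1 nearest outside at -0.58 (SE 0.21). Nlrc5, on the higher side, lay inside and closer to the threshold than Tapbp. Nlrc5 lay outside it without any one of 5 libraries (each control, and replicates 1 and 2 of miR-322/-503), and Tapbp without replicate 1 or 3 of the controls or replicate 2 or 3 of miR-322/-503.

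**Figure D3:**
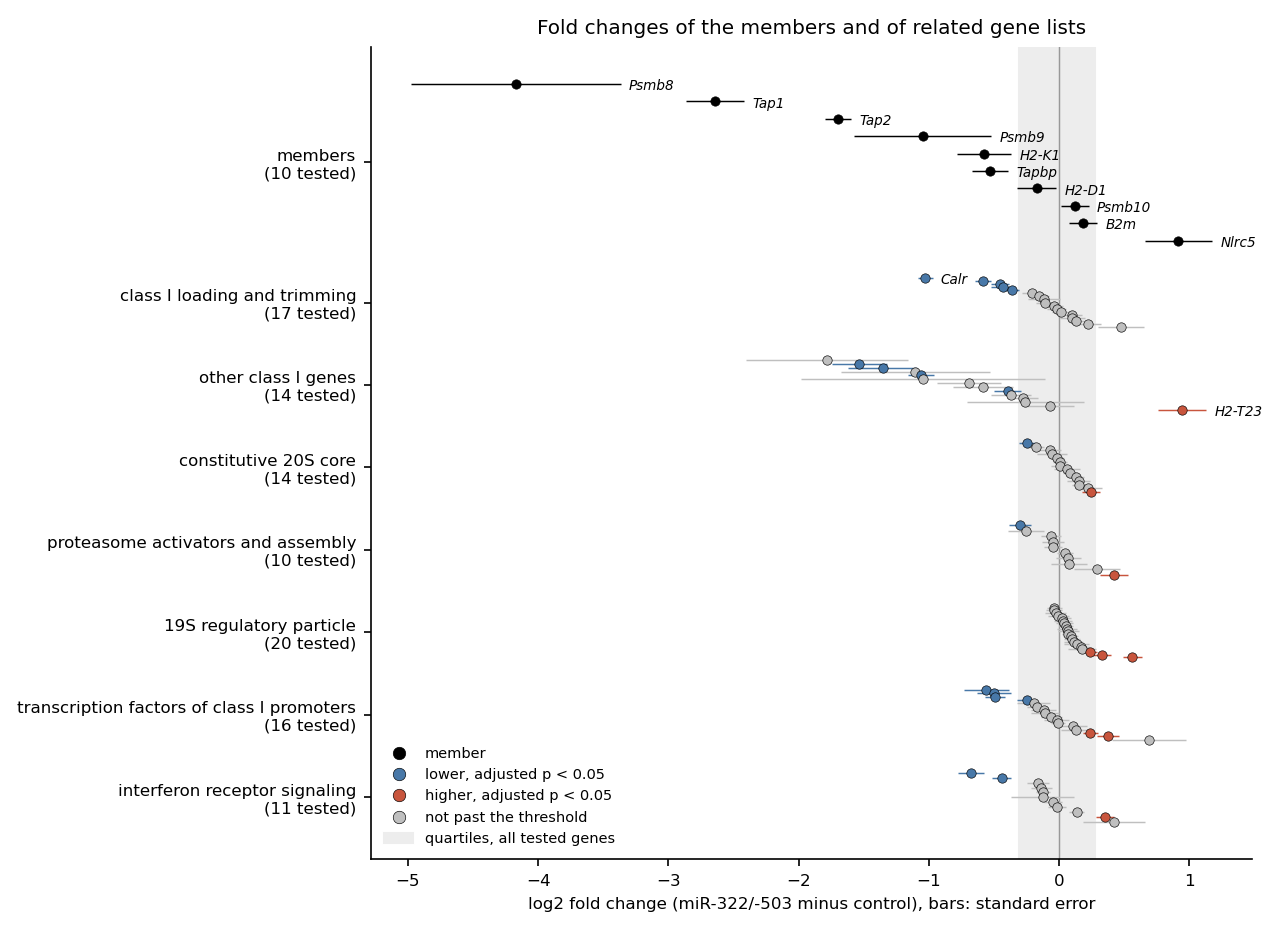
Log2 fold change (miR-322/-503 minus control) with its standard error for the 10 genes (black, chosen on this contrast) and for fitted genes of 7 related lists, colored by the edgeR call. The grey band spans the quartiles of all fitted genes, -0.30 and 0.28. Psmb8, Tap1, Tap2, Calr and H2-T23 are among the points well outside it, and H2-T10 and Hfe lie further out than Calr. The class II list, with 2 fitted genes, is not drawn.

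Genes that act on the same steps and had no part in the selection were counted by list. The lists hold 119 genes and 104 were fitted, of which 19 fell and 9 rose, and their median log2 fold change was -0.03. Without control replicate 1, or without control replicate 2, 12 fell. In the control against miR-322/-503 comparison of all fitted genes, 15.5% fell and 13.2% rose. The lists were put together with earlier results of these data known. With a log2 fold change limit, 5 were lower below -1 and 0 were higher above 1 by edgeR (also 0 at an unadjusted p under 0.05, by DESeq2 and by limma).

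Of 17 genes for class I loading and peptide trimming, 5 fell and 0 rose by edgeR, with a median log2 fold change of -0.11 (1, the aminopeptidase Npepps, was higher at an unadjusted p under 0.05 and by DESeq2 and limma, and 1 gene of the list was higher with the replicate block and without control replicate 3). Calr (calreticulin, the chaperone that holds the class I heavy chain in the loading complex) was at 2486, 2645 and 2620 CPM in controls and at 1185, 1314 and 1302 CPM with miR-322/-503. The groups were far apart (log2 fold change -1.03, SE 0.06, adjusted p = 1.97e-05). Hspa5, the main chaperone of the endoplasmic reticulum, fell by 0.58 on the log2 scale (adjusted p = 0.000516), the bleomycin hydrolase Blmh, which trims peptides in the cytosol, by 0.45 (adjusted p = 0.00249), and Tapbpl, the tapasin-related peptide editor, by 0.43 (adjusted p = 0.0126). Sec61a1, of the channel into the endoplasmic reticulum, fell by 0.36 (adjusted p = 0.00259). Canx, Pdia3 and Erap1, which are the calnexin chaperone, the disulfide isomerase of the loading complex and the trimming aminopeptidase, had log2 fold changes of -0.02, -0.12 and 0.10 (adjusted p = 0.883, 0.536 and 0.380).

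Of 18 other class I and class I-like genes, 14 were fitted, 4 fell and 1 rose, with a median of -0.64. H2-T10 was at 4.16, 5.95 and 5.78 CPM in controls and at 2.09, 1.93 and 1.46 CPM with miR-322/-503 (log2 fold change -1.53, adjusted p = 0.00144), H2-Q4 at 17.1, 17.6 and 15.7 against 8.57, 8.33 and 7.33 CPM (-1.06, adjusted p = 0.000236), and Hfe, a class I-like regulator of iron uptake, at 1.99, 1.83 and 2.39 against 0.892, 0.960 and 0.572 CPM (-1.35, adjusted p = 0.00725). H2-T22 fell by 0.39 (adjusted p = 0.0293). H2-T23, which encodes Qa-1, the non-classical molecule seen by NKG2 receptors, rose. It was at 10.5, 12.4 and 9.996 CPM in controls and at 25.04, 22.9 and 15.6 CPM with miR-322/-503 (0.95, adjusted p = 0.00754), so class I genes of the same chromosome moved in opposite directions. H2-M3, which presents formylated peptides, was at 4.81 ± 0.391 and 2.98 ± 1.02 CPM without overlap (-0.69, adjusted p = 0.0758). The same reservation on shared reads applies to the H2-Q and H2-T genes.

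Core proteasome genes differed by little in either direction. Of 14 constitutive 20S core genes, 1 rose (Psma7, log2 fold change 0.25, adjusted p = 0.0362) and 1 fell (Psma4, -0.25, adjusted p = 0.0219), and the 14 values lay between -0.25 and 0.25. Of 10 activator and assembly genes, Psme4, the PA200 activator, rose by 0.42 (adjusted p = 0.0246) and the assembly chaperone Psmg2 fell by 0.30 (adjusted p = 0.0306). Without control replicate 2, or without replicate 1 of miR-322/-503, these 2 lists gave 0 calls, and without any one of the other libraries they gave 1 to 3 in place of 4. In the 20S core list limma gave 0 higher and 0 lower, and 0 were higher with no filter on low counts but 2 with upper quartile factors, the replicate block or counts per read pair. In the activator list 0 were lower with the replicate block. The interferon-inducible activator subunits Psme1 and Psme2 (PA28 alpha and beta) were at 20.5 ± 1.39 and 48.7 ± 2.74 CPM in controls and at 21.5 ± 1.97 and 46.7 ± 3.15 CPM with miR-322/-503 (0.07 and -0.06, adjusted p = 0.636 and 0.610). Of 20 genes of the 19S regulatory particle, which recognizes ubiquitin and unfolds substrates, 3 rose (Psmd8 by 0.56, Psmd9 by 0.33 and Psmd7 by 0.24, adjusted p = 0.000973, 0.0104 and 0.0145) and 0 fell by edgeR (also 0 at an unadjusted p under 0.05, by DESeq2 and by limma).

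The factors that act on class I promoters were mixed. Of 16, 4 fell (Irf2 by 0.56, Nfyc by 0.50, Rfx5 by 0.49 and Rfxank by 0.25, adjusted p = 0.0469, 0.0271, 0.00241 and 0.0417) and 2 rose (Relb by 0.38 and Rela by 0.24, adjusted p = 0.0165 and 0.0169). The 4 that fell became 1 without control replicate 2, control replicate 3 or replicate 3 of miR-322/-503 and 2 without control replicate 1 or replicate 1 of miR-322/-503. The 2 that rose became 1 without control replicate 2 or replicate 2 of miR-322/-503, and 0 without its replicate 3. The 4 also became 2 with upper quartile factors or with no filter on low counts, and the 2 became 1 with limma. Rfx5 and Rfxank are subunits of the RFX complex on the X region, Nfyc is a subunit of NF-Y, Irf2 binds interferon-stimulated response elements, and Rela and Relb are NF-κB subunits. The interferon-gamma effector Irf1 was at 38.4 ± 1.16 CPM in controls and at 41.4 ± 5.83 CPM with miR-322/-503 (log2 fold change 0.11, adjusted p = 0.487). Of 13 genes of interferon receptor signaling, 11 were fitted. Among them the kinase Jak2 fell by 0.67 (adjusted p = 0.00202), the receptor chain Ifngr1 fell by 0.44 (adjusted p = 0.00365) and the type I receptor chain Ifnar1 rose by 0.35 (adjusted p = 0.00874). Jak1 was at 209.6 ± 4.35 and 192 ± 4.68 CPM (-0.13, adjusted p = 0.128), and Ifng and Ifnb1, the genes of the cytokines, did not pass the filter.

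The class II pathway was nearly silent. Of 11 genes, 9 did not pass the filter, and H2-Aa, H2-Ab1, H2-Eb1, H2-Oa and H2-Ob were at 0 in every library. H2-DMa, a peptide editor of class II molecules, was at 5.61 ± 0.749 CPM in controls and 3.66 ± 0.284 CPM with miR-322/-503 (log2 fold change -0.62, adjusted p = 0.0186), and Cd74, the invariant chain, was under 1 CPM in both groups (0.596 ± 0.0941 and 0.221 ± 0.0536 CPM, -1.42, adjusted p = 0.0259). Neither passed the threshold without control replicate 1 or without control replicate 2, and 1 of them did without any one miR-322/-503 library, with the replicate block or with counts per read pair.

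The genes lie on 3 chromosomes, 7 of them on chromosome 17, 2 on chromosome 8 and 1 on chromosome 2 (coordinates of the deposited tables on GRCm38). The MHC members run from Tapbp at chr17:33915899-33929292 and H2-K1 at chr17:33996017-34000347 to H2-D1 at chr17:35262730-35267499. Between them, Psmb9 (chr17:34181987-34187764, minus strand), Tap1 (chr17:34187553-34197225), Psmb8 (chr17:34197721-34201454) and Tap2 (chr17:34203527-34216321) follow one another. By edgeR these 4 had the lowest log2 fold changes of the set, with the place of Psmb9 resting on few reads. Psmb9 was at -1.05 (SE 0.53), at -0.67 without control replicate 3, and at -0.24 with limma on log2(TPM + 1), where H2-K1 (-0.77) and Tapbp (-0.48) were lower. The 140 other fitted genes within 1000000 bases of a chromosome 17 member had a median log2 fold change of -0.08, with 20 lower (14.3%) and 10 higher (7.14%), against 15.5% and 13.2% over all fitted genes.

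Nlrc5 (chr8:94434356-94527272) was higher in a stretch where most genes were lower. Of 42 fitted genes within 1000000 bases of it, 26 fell (61.9%) and 1 rose, with a median log2 fold change of -0.67. The nearest fitted gene after it, Cpne2, fell from 70.3 ± 5.31 to 36.4 ± 2.04 CPM (-0.95, adjusted p = 0.000109), and the nearest before it, the pseudogene Ap3s1-ps2, was at 1.16 ± 0.0875 and 1.78 ± 0.246 CPM (0.62, adjusted p = 0.0576). Calr, from the loading list, is also on chromosome 8, and of the 71 fitted genes within the same distance of it 49 fell (69.0%) and 1 rose, at a median of -0.86. Psmb10 (chr8:105935735-105938444, minus strand), further along chromosome 8, lay among 64 fitted genes with a median of 0.05, of which 10 rose and 5 fell. Its nearest fitted genes, Gm16156 and Lcat, had log2 fold changes of 0.60 and 0.27 (adjusted p = 0.382 and 0.618). B2m (chr2:122147686-122153083) lay among 35 fitted genes with a median of 0.05, 6 higher and 2 lower. The B2m median was larger in a narrower window and its sign turned with a library left out, as given in the closing section. Calr was added to this comparison after its value was seen, and what moved the genes of this stretch was not tested.

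**Figure D4:**
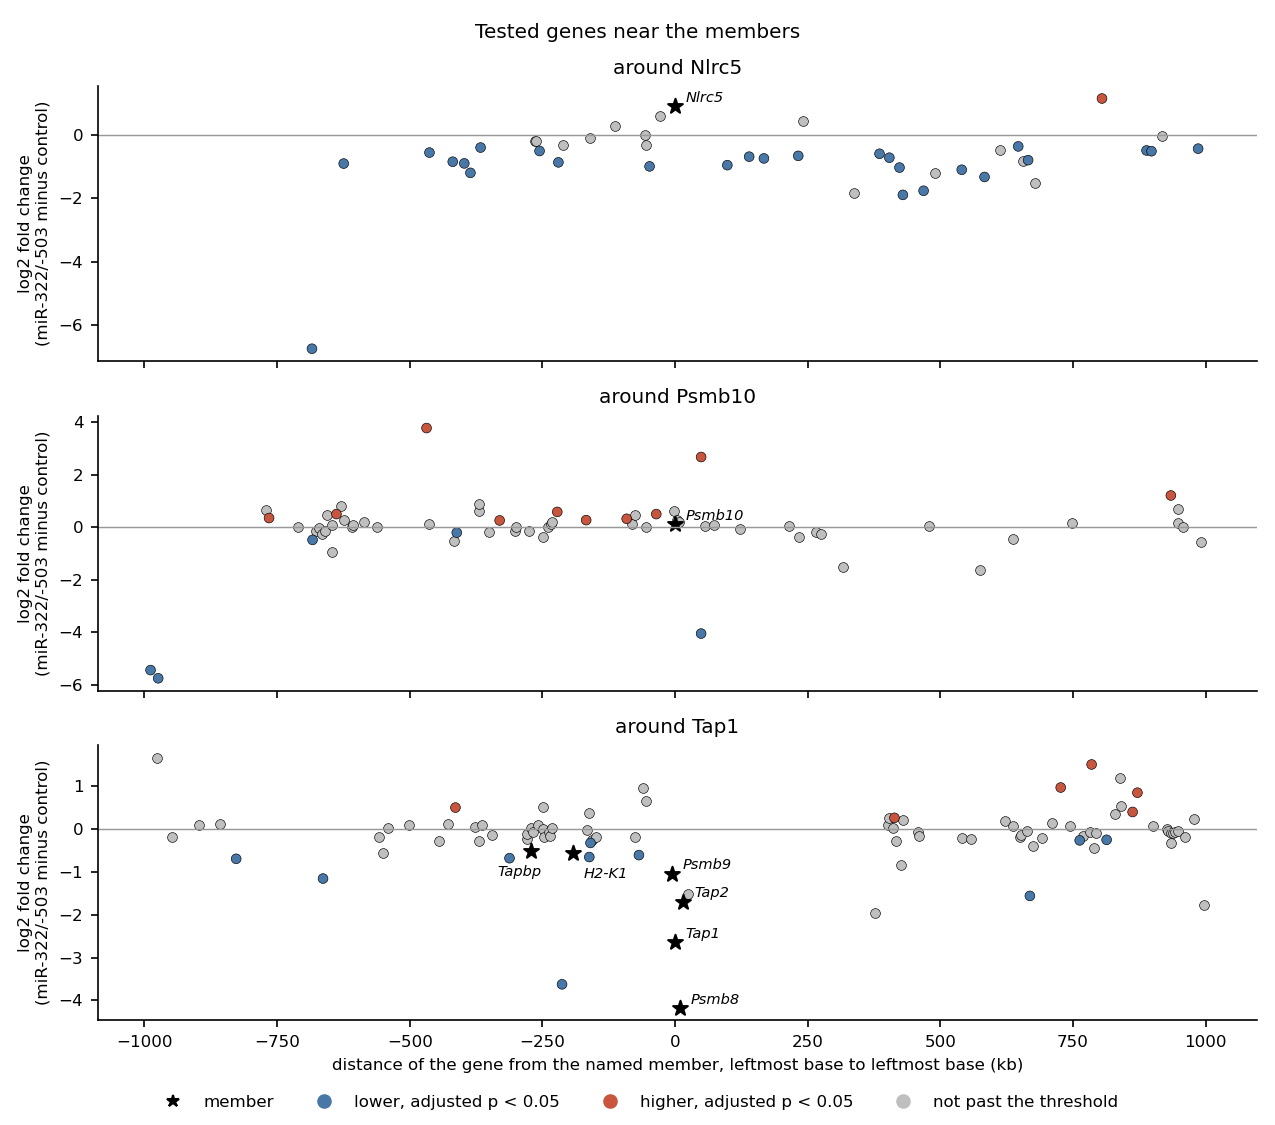
Log2 fold change of fitted genes against their distance (kb) from Nlrc5, Psmb10 and Tap1, with members as stars and colors for the edgeR call. Around Nlrc5 most points lie below 0 while Nlrc5 is at 0.92, and around Tap1 the stars of Psmb9, Tap1, Psmb8 and Tap2 lie together below most neighbours.

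Some of these genes overlap others, and whether counting used the strand is not given in the sources used here. Psmb9 and Tap1 share 212 bases on opposite strands (chr17:34187553-34187764), so that some of the few Psmb9 reads could belong to Tap1. Gm16156 covers all of Psmb10 on the other strand, at 0.328 and 0.499 CPM in the groups. Gm15821 lies inside Tap2 on the other strand, with a log2 fold change of -1.53 and 0.458 and 0.156 CPM. Zbtb22 shares 3422 bases with Tapbp on the same strand and had a log2 fold change of 0.01. Reads of the pairs on opposite strands cannot be told apart without strand.

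The genes outside the set whose profile over the 6 libraries was nearest to the median profile of the 10 genes were Sacm1l, Fkbp14, Nlrx1, Dock6 and Cks2, out of 10982 genes that averaged 5 CPM or more. Their root-mean-square distance from it was between 0.0581 and 0.0724 on the centered log2 CPM scale. Sacm1l, a phosphoinositide phosphatase, was at 96.0, 85.4 and 91.8 CPM in controls and at 75.5, 54.4 and 58.7 CPM with miR-322/-503. In Sacm1l, replicate 1 was the highest library of each group. The median profile has the same order, so this follows from how Sacm1l was picked. Replicate 1 of miR-322/-503 was the highest of its group in CPM in 6 of the 10 genes. Control replicate 1 was likewise the highest control in Psmb10, Tap2, Tapbp, H2-K1, H2-D1 and Nlrc5.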

How the data were processed

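RNA-seq libraries of 3 control and 3 miR-322/-503 samples were analyzed from the deposited tables. According to the methods and the submitters' processing notes, the authors used Trim Galore for trimming, HISAT2 for alignment (build GRCm38) and StringTie for quantification, with versions, annotation and strand setting not given in the sources used here. The deposited count table holds estimated counts per gene, not normalized. The deposited per-library tables hold coverage (mean signal per base), FPKM and TPM. Low estimated counts peaked at 4, 8 and 12 in all 6 libraries, so 1 read pair was taken as 4 counts. The 6 libraries held 73532084 to 92157388 counts.

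Counts were fitted with edgeR (version 4.0.16, R 4.3.3) by the quasi-likelihood test after its expression filter and TMM scaling, with Benjamini-Hochberg adjustment over 18140 genes and a threshold of 0.05. DESeq2 (1.42.0) and limma (3.58.1, on log2(TPM + 1) and log2(TPM + 0.1)) were alternatives, with other scalings and filters, a replicate block, counts per read pair and leaving out each library. Catalytic shares and level orders used TPM, with FPKM and coverage as alternatives for the shares.

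The 10 genes and the lists were chosen with earlier results of these data known. Genes named were the 10, a fixed set of counterparts (1 of them is not reported here), from each list the 3 genes past the threshold with the largest change at 1 CPM or more in the higher group, the nearest fitted gene on each side of Nlrc5 and Psmb10, and the 5 genes nearest in profile. Sec61a1, Npepps, H2-T22, Rfxank, Relb, Rela, Cd74, the overlapping genes and the marker genes were named after their values were seen. The symbol Nrdc was matched through its RefSeq synonym. A protein comparison was not run. Chi-square per degree of freedom between replicates was 13.6 to 19.6, so no library was a copy of another.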

Additional observations from a re-analysis of the deposited data

How the results depend on the processing

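Under the alternatives, 4 genes of the set lower became 3 to 5, and 1 higher became 0 by limma with either pseudocount, 2 with the replicate block and 0 to 1 when libraries were left out in turn, with 0 without control replicate 1, 2 or 3 or miR-322/-503 replicate 2. For the related lists, 9 higher ranged from 6 to 12 and 19 lower from 12 to 20, at 12 to 16 with a library left out, 12 of them without control replicate 1 or 2. Deviations of same-numbered libraries correlated at r = 0.131, 0.0687 and 0.0451, and those of differently numbered libraries at between -0.108 and 0.0401. All of these values were small, and they do not settle whether replicate numbers pair the libraries. With the replicate block the lists gave 12 higher and 19 lower, and B2m (0.18), H2-K1 (-0.62) and H2-M3 (-0.74) passed the threshold. H2-K1 also passed it with DESeq2, with limma and without replicate 1 of miR-322/-503, B2m also without that replicate (where it, not Nlrc5, was the 1 higher), and H2-M3 also with DESeq2 and without replicate 2 of miR-322/-503. Nlrc5 and Tapbp missed it with limma. Directions near 0 turned for Psmb5 (-0.148 to 0.062 with libraries left out, above 0 without miR-322/-503 replicate 3), Psmb6 (-0.0049 with limma at either pseudocount, and -0.0086 to 0.035 with libraries left out, below 0 without control replicate 1 or 3), Psme1 (-0.0020 with limma at either pseudocount, and -0.0039 to 0.123 with libraries left out, below 0 without miR-322/-503 replicate 3), Canx (-0.0806 to 0.0165 with libraries left out, above 0 without control replicate 1 or 3 or miR-322/-503 replicate 2) and Irf1 (-0.0116 and -0.0111 with limma), none of them past the threshold in either fit. By coverage the share of the 3 immunoproteasome subunits was 2.55% in controls and 2.59% with miR-322/-503, so its order turned. Among neighbours, the median was -0.50 with limma around Nlrc5, 0.0288 to 0.119 with libraries left out around Psmb10, and around B2m 0.334 within 500000 bases, 0.0928 within 2000000 bases and -0.0437 to 0.0614 with libraries left out, lowest without miR-322/-503 replicate 3. The cause of these changes was not tested. Depth limits Psmb8, Psmb9 and the class II genes other than H2-DMa, which lay near or under 3 read pairs a library in one group or both.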
